A study of Xenopus laevis with 111 samples.

Results

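Of the 45099 gene models of *X. laevis* listed in these spinal cord data, 20 rose after a sham operation. At 0.5 to 2 h their mean levels after transection of the cord were close to those after the sham operation. These 20 genes were chosen by a rule on measured values. The level of a gene was its CPM, its share of the expected counts of a library scaled to counts per M, taken as log2(CPM + 1). A gene had to be at least 0.3 higher in sham cords at 1 to 2 h than in cords at 0 h in each of the series S1, S2 and S3, and at least 0.6 higher on average. The mean difference between transected and sham cords of the same series and hour had to lie within 0.3 in either direction at 0.5 to 2 h (10 pairs) and within 0.6 at 16 to 21 h (9 pairs). The values of those windows chose the genes, and operated libraries of these hours are given below without a test. All 20 genes also passed the filter on low counts that 32328 genes passed. The genes are numbered here from gene 1 to gene 20 by their mean sham rise, because the tables pair the identifiers with no gene symbols and 0 of the identifiers matched the RefSeq table of 44456 genes. Their functions are therefore not given, and no marker of a tissue or cell type could be checked.

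Tadpoles at NF stage 50, a stage at which the cord still regenerates, were compared in 3 conditions. Transected animals were anaesthetised, the skin and muscle of the back were opened at mid-thoracic level, and the cord was severed. Sham animals had the same anaesthesia and opening but an intact cord, and uninjured animals had no operation. Transected and sham cords (36 libraries each) were taken between 0.5 and 21 h after surgery in the parallel series S1 to S6, which share 8 libraries of 0 h (2 each in S1 and S2, 1 each in S3 to S6). The labels give these 0 h cords as uninjured, so a change from 0 h sets operated against unoperated cords. The separate uninjured series (25 libraries), called uninjured cords below, were taken at 0 to 13 h in S7 and at 0 h and 12 to 21 h in S8. A second experiment held transected animals kept for the initial day in Torin1, an inhibitor of the kinase mTOR, or in its solvent DMSO, with 1 library each at 1, 2 and 4 days. Each library was made from the caudal part of the cord, pooled over 10 animals in S1 and S2, 12 in S3 to S8 and 15 in the Torin1 experiment. S1 and S2 came from the same fertilization, S3 to S6 each from another batch of animals, and S7 and S8 from a shared batch. The p-values of the time series treat neighbouring hours within a series as replicates. They therefore measure the spread between such hours and not between batches of animals. Those of the Torin1 experiment treat the days as replicates.

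A sham operation is a control for what is done around a lesion rather than for the lesion itself. It shares with the lesion the anaesthesia, the handling and the wound of skin and muscle, and many immediate early and stress-response genes are known to react to such procedures within minutes to hours. The uninjured series had no surgery, and it gives the levels of the genes over the same hours without an operation.

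Library totals ran between 9.96 and 76.6 M expected counts in the time series (median 18.3 M). Some libraries stood apart from their neighbours in time. Between 11 and 12 h in S7 19.9% of genes changed at least 2-fold, and between 12 and 13 h in S8 12.2% did, against a median of 0.489% over the 19 steps between uninjured hours from 3 h on. In S5 such a step involved 5.35% of genes in transected cords, between 11 and 12 h, and 7.92% in sham cords, between 12 and 13 h (medians 0.254% and 0.363% over 22 steps each). The 12 h pair of S5 thus sets a transected library after the step of its group against a sham library before that of its own.

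The limits on the sham rise alone left 172 genes. Among these, 138 were higher in transected than in sham cords by more than 0.3 at 0.5 to 2 h and 1 was lower by more than 0.3, and the median difference of the 172 was 0.683. The remaining 33 genes lost 13 to the limit at 16 to 21 h, of which 4 were higher and 9 lower in transected cords. The gene nearest to the limit of the mean sham rise lay at 0.656 inside it, and the nearest outside lay at 0.595. For the difference at 0.5 to 2 h these values were 0.295 inside and 0.314 outside, and for 16 to 21 h they were 0.538 inside and 0.614 outside.

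The mean sham rise was 2.85 for gene 1, 1.22 for gene 2, 1.06 for gene 3 and between 0.66 and 0.98 for the other 17 genes. In transected cords the median change of the 20 genes from 0 h of their own series was already 0.68 in S1 and 0.41 in S2 at 0.5 h. It reached 1.04 in S1 at 1.5 h and 1.09 in S2 at 2 h, and within the hours of the rule it was highest in S3 at 2 h with 0.87. In sham cords it was 0.49 in S1 and 0.45 in S2 at 0.5 h, and it reached 1.13 in S1 and 1.00 in S2 at 1.5 h and 0.90 in S3 at 1 h. Both medians were above 0 at the earliest hour sampled. They are changes from 0 h libraries that the rule used, so they only describe the chosen genes. The rule itself asked for no rise in transected cords. At 1 to 2 h the mean change in transected cords was above 0 for 20 genes in S1 and S2 and for 19 in S3. In S3 it was -0.08 for gene 19 (sham 0.55) and 0.03 for gene 11 (sham 0.69). In S1 it was 0.94 for gene 9 (sham 0.48). The highest transected level fell at 1.5 h for 12 genes in S1 and 11 in S2, where it did for 22.8% and 27.2% of all tested genes. The highest sham level fell at this hour for 16 genes in S1 and all 20 in S2, against 30.8% and 37.9% of all tested genes. S1 and S2 ended at 2 h. The rule used their hours and those of 1 and 2 h in S3, so high levels at these hours were favoured in advance. In S3 the highest sham level fell at 1, 2, 3, 4, 5 and 6 h for 6, 4, 6, 1, 2 and 1 genes (14.4% to 19.4% of all tested genes an hour). The highest transected level did so for 5, 7, 5, 0, 2 and 1 genes (13.5% to 22.3%). By 6 h in S3 the median was 0.34 in transected and 0.41 in sham cords. In a bulk sample, fewer cells of a type and less RNA per cell cannot be told apart.

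**Figure D1:**
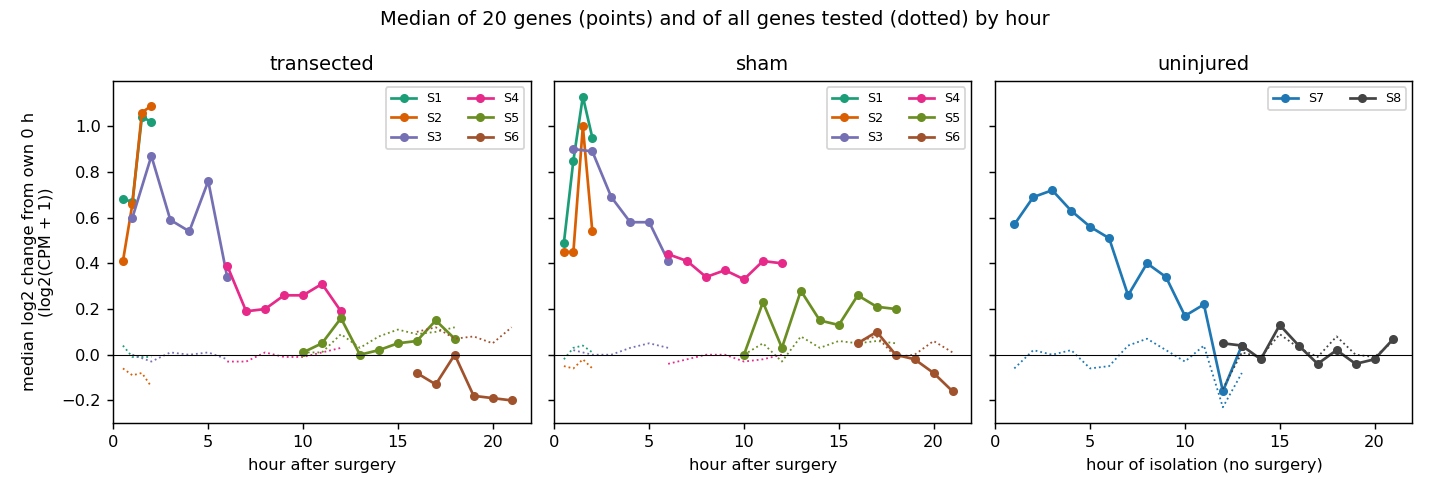
Median over the 20 genes of the change from 0 h of their own series (y axis, log2(CPM + 1)) by hour (x axis), in transected, sham and uninjured cords, with a point per library and a colour per series; dotted lines are the medians of all 32328 genes tested. The median was highest between 1 and 2 h in transected and sham cords, hours that the rule used, and in uninjured S7 cords it reached 0.72 at 3 h.

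Gene 1 (Xelaev18034222m.g) rose most. In transected cords it was at 24.4, 46.5, 125 and 118 CPM at 0.5, 1, 1.5 and 2 h in S1, at 13.9, 19.9, 34.1 and 36.2 CPM in S2, and at 20.5 and 35.4 CPM at 1 and 2 h in S3. In sham cords it was at 21.1, 51.1, 84.7 and 89.8 CPM at the same hours in S1, at 11.5, 17.2, 41.8 and 22.4 CPM in S2, and at 34.9 and 61.0 CPM in S3. The 5 libraries of 0 h in these series held 3.85 to 7.37 CPM, below every operated library. Transected and sham levels overlapped, with transected above sham in 6 of 10 pairs and a mean difference of 0.04 ± 0.50 (SD).

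Gene 2 (Xelaev18022712m.g) was at 8.56 to 23.8 CPM (median 15.6) in the 8 transected libraries of 1 to 2 h, at 10.0 to 18.2 CPM (median 13.0) in the 8 sham libraries, and at 2.89 to 8.77 CPM (median 5.54) in the 5 libraries of 0 h. The sham rise was 1.84 in S3 and 0.92 and 0.91 in S1 and S2, and the lowest transected library, of S3, lay just under the highest library of 0 h, of S1. Gene 12, at a mean of 38.4 CPM at 0 h, was at 46.0 to 76.1 CPM in transected, 55.8 to 81.4 CPM in sham and 33.3 to 42.4 CPM in 0 h libraries, and the operated libraries did not overlap those of 0 h.

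Every transected library of 1 to 2 h lay above every 0 h library of its own series for 19 genes in S1, 17 in S2 and 18 in S3, where this held for 12.4%, 11.2% and 32.5% of all tested genes. For sham libraries the counts were 16, 16 and 20 (16.0%, 8.38% and 32.9% of all genes). It held in all 3 series for 15 genes in transected cords (2.34%) and for 14 in sham cords (1.04%). Since the rule used these libraries, the counts only describe it.

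For genes 9, 10, 16 and 20 the libraries of 0 h in S2 differed from each other by more than the genes rose in sham cords of that series. They held 123 and 49.5 CPM of gene 9, 202 and 74.0 CPM of gene 16, 68.6 and 38.5 CPM of gene 20, and 5.87 and 1.22 CPM of gene 10. These folds of 2.49, 2.72, 1.78 and 4.83 all lay above the 95th percentile of tested genes (0.55 on the log2 scale), and the other 16 genes lay below it. Sham cords of S2 at 1 h held 110 CPM of gene 9 and 164 CPM of gene 16, which is less than the higher library of 0 h. In S1 the libraries of 0 h differed by less, with a highest log2 difference of 0.543 over the 20 genes and none above the 95th percentile.

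The uninjured cords did not enter the rule, and they were compared with their own 0 h to ask whether the genes also changed without surgery. Their hours from 1 to 10 h were taken in S7 only, which has 1 library of 0 h. With the series as a block, the 0 h library of S8 enters these windows only through that of 11 to 15 h, which both series share. All 20 genes share this baseline, so their differences are not independent of each other. Genes 1 and 12 were higher at 1 to 2 h, and genes 1, 12 and 17 were higher at 3 to 6 h (edgeR's quasi-likelihood test with Benjamini-Hochberg adjustment over all 32313 genes of that fit). At 1 to 2 h, where 0.0495% of all genes were called higher, 2 of the 20 were called, 18 had a positive difference and their median was 0.60 on the log2 scale, against 0.01 over all genes tested. At 3 to 6 h, where 0.102% were called higher, 3 of the 20 were called, all 20 had a positive difference and their median was 0.55, against 0.01. No member was called lower in either window, where 0.0% and 0.00619% of all genes were. An unadjusted p under 0.05 was reached by 11 of the 20 genes in each window, and by 2.88% and 5.27% of all genes.

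In uninjured cords gene 1 was at 21.1 and 49.7 CPM at 1 and 2 h, at 52.2, 47.9, 42.4 and 29.2 CPM at 3, 4, 5 and 6 h, and at 7.35 and 5.76 CPM in the libraries of 0 h in S7 and S8. Every later uninjured library, up to 21 h, lay above both, and the lowest of them held 13.4 CPM. The log2 difference from 0 h was 2.45 ± 0.32 (SE, adjusted p = 0.0011) at 1 to 2 h and 2.75 ± 0.30 (adjusted p = 8.9e-05) at 3 to 6 h by edgeR. It was still 2.35 ± 0.30 at 7 to 10 h (adjusted p = 0.001), 1.97 ± 0.27 at 11 to 15 h and 1.28 ± 0.28 at 16 to 21 h (edgeR adjusted p = 7e-04 and 0.017). The uninjured levels at 1 and 2 h lay within the range of the sham libraries at 1 to 2 h, 17.2 to 89.8 CPM. No test set the uninjured change against the sham rise, since they come from different series and batches.

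Gene 12 held 74.8 and 84.3 CPM at 1 and 2 h in uninjured cords, 76.8, 66.1, 70.6 and 57.5 CPM at 3 to 6 h, and 41.7 and 50.4 CPM at 0 h, without overlap. The log2 difference was 0.95 ± 0.14 at 1 to 2 h (SE, edgeR adjusted p = 0.0024) and 0.73 ± 0.12 at 3 to 6 h (adjusted p = 0.012). Gene 17 was at 19.9 and 28.5 CPM at 1 and 2 h, at 31.1, 30.9, 25.7 and 24.2 CPM at 3 to 6 h, and at 15.5 and 12.5 CPM at 0 h. All of its later libraries up to 10 h lay above those of 0 h, and it passed the test at 3 to 6 h with 0.99 ± 0.19 (SE, edgeR adjusted p = 0.03).

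Other genes had higher levels than at 0 h in these windows without passing the test. Gene 18 held 7.71 and 7.12 CPM at 1 and 2 h and 5.96 to 9.42 CPM at 3 to 6 h in uninjured cords, against 3.45 and 3.52 CPM at 0 h, and its difference at 3 to 6 h was 1.27 ± 0.27 (SE, edgeR adjusted p = 0.073). Gene 8 held 22.5 and 19.8 CPM at 1 and 2 h and 16.6 to 27.2 CPM at 3 to 6 h, against 10.7 and 13.4 CPM at 0 h, and then 11.4 to 12.1 CPM at 7 to 10 h. At 11 to 13 h in S7 gene 18 held 2.83 to 3.41 CPM, below both libraries of 0 h. Gene 8 held 10.4 to 12.6 CPM at these hours, around its levels of 0 h. For 13 of the 20 genes both uninjured libraries of 1 to 2 h lay above both of 0 h (13.0% of all genes), and for 13 all 4 libraries of 3 to 6 h did (8.06%). At 7 to 10 h 9 genes were above without overlap (17.0%), at 11 to 15 h 5 (3.21%) and at 16 to 21 h 5 (14.1%).

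Genes 7, 9, 10, 16 and 20 were not among those 13 in either window, and their uninjured levels swung from hour to hour. Gene 9 held 118, 51.6, 109, 80.8, 93.5 and 110 CPM at 1 to 6 h and 76.5 and 104 CPM at 0 h. Gene 16 held 158, 77.7, 138, 111, 147 and 155 CPM at the same hours and 101 and 138 CPM at 0 h, and gene 10 held 26.3, 2.08, 11.9, 2.46, 15.2 and 18.3 CPM and 12.9 and 8.89 CPM at 0 h. All of these genes were lower at 2 h than at 1 and 3 h. Their log2 differences from 0 h at 1 to 2 h lay between -0.13 for gene 7 and 0.49 for gene 10, with standard errors from 0.35 to 1.13.

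**Figure D2:**
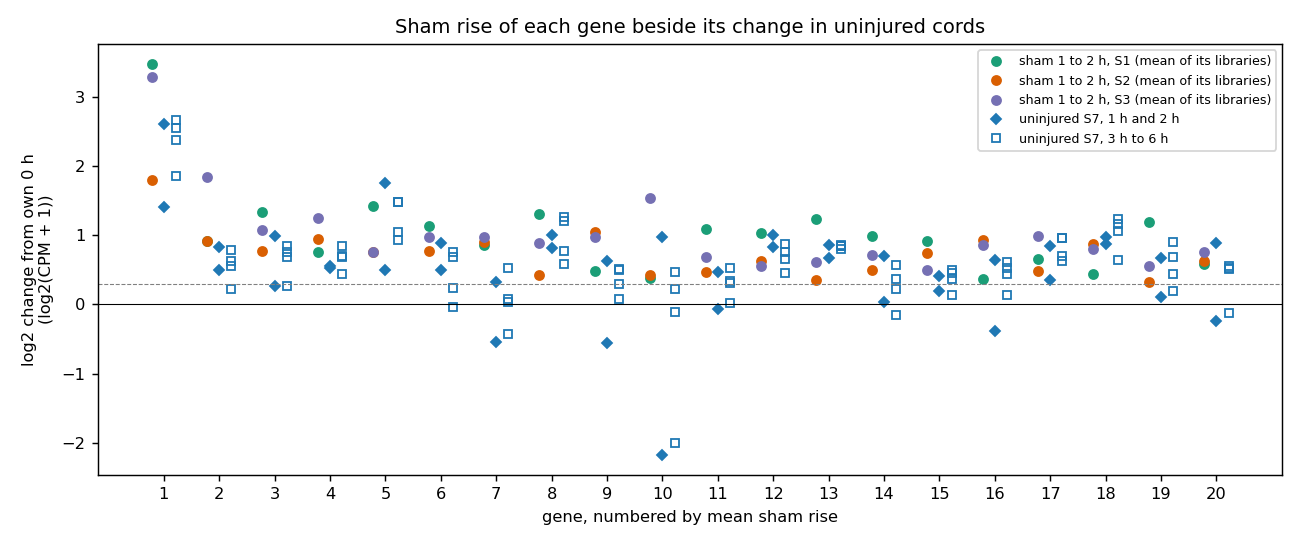
Change from own 0 h (y axis, log2(CPM + 1)) of each of the 20 genes (x axis) in sham cords at 1 to 2 h, with a circle per series S1 to S3, and in uninjured S7 cords, with a diamond each for 1 and 2 h and an open square each for 3 to 6 h; the dashed line marks 0.3. Gene 1 stood above the others in sham cords of each series and in uninjured cords at 2 to 6 h. Genes 6, 7, 9, 10, 11, 14, 16 and 20 had uninjured libraries on both sides of 0.

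The uninjured calls, over all genes as over the 20, depended on the libraries of 0 h. Without the 0 h library of S7, 0 of all genes were called at 1 to 2 h (16 with it) and 3 at 3 to 6 h (35 with it). Gene 1 was the only one of the 20 among the 3, with a difference of 3.06 (edgeR adjusted p = 0.014). Without that of S8, 2 of the 20 were called at 1 to 2 h, out of 8 of all genes, and 1 at 3 to 6 h, out of 12. With S7 alone 0 and 1 of all genes were called and none of the 20, and gene 1 differed by 2.27 and 2.57 (edgeR adjusted p = 0.41 and 0.077). Against the uninjured libraries of 7 to 10 h, a comparison chosen after seeing the data, 0 of the 20 genes were called in each window (0.0681% and 0.0% of all genes were called higher, 0.0371% and 0.0% lower), 7 and 8 had an unadjusted p under 0.05 (8.16% and 4.2% of all genes), and the medians were 0.25 and 0.35, against -0.01 and 0.00 over all genes. Without the 12 h libraries that stood apart, likewise chosen after seeing the data, 2 of the 20 were called at 1 to 2 h and 5 at 3 to 6 h, out of 18 and 63 of all genes, with genes 13 and 18 added to genes 1, 12 and 17.

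The later uninjured hours were tested likewise. Gene 1 alone was called at 7 to 10 h (0.124% of all genes were called higher) and at 16 to 21 h (0.73%), and genes 1 and 4 were at 11 to 15 h (0.473%). Gene 4 held 41.6 to 63.8 CPM in the 7 uninjured libraries of 11 to 15 h, against 24.9 and 29.2 CPM at 0 h, and differed by 0.95 ± 0.22 (SE, edgeR adjusted p = 0.031). No member was called lower in these windows, where 0.0495%, 0.517% and 1.32% of all genes were. The medians of the 20 genes were 0.20, 0.09 and -0.01. Without the 0 h library of S7 the calls were 0, 1 and 0, and without that of S8 they were 1, 0 and 0.

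Series S4 to S6 began with cords at 0 h and then held only 6 h and later, and they did not enter the sham rise of the rule. No member passed the test between sham cords and 0 h in the windows of 6 to 10 h and 11 to 15 h, where edgeR called 0.0% of all genes (2431 and 1382 of 32328 genes had an unadjusted p under 0.05, and DESeq2 called 36 and 0 genes, with 0 of the 20 among them). The medians of the 20 genes were 0.19 and 0.21, with 15 of 20 positive in each window. The operated libraries of 16 to 21 h entered the rule and were not tested against 0 h.

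The levels at 0 h differed between series. The clock time at which each 0 h was taken is not given in the sources used here, so a change from 0 h is relative to the starting level of that series. Gene 1 was at 30.4 CPM in S5 and 21.5 CPM in S6, against 3.85 to 7.37 CPM in the other 8 libraries of 0 h, those of uninjured cords included. Gene 4 was at 61.4 and 45.8 CPM in these 2 series, against 13.3 to 37.7 CPM in the other 8. Genes 14 and 15 also lay above all others there, at 69.5 and 66.7 CPM against 34.2 to 63.9 CPM, and at 34.1 and 24.1 CPM against 14.1 to 23.4 CPM. That makes 4 of the 20 genes, and 2.53% of all tested genes had both libraries above the other 8. Without S5 the differences of genes 1 and 4 in sham cords were 2.93 and 0.80 at 6 to 10 h and 2.80 and 0.80 at 11 to 15 h. These windows then rest on S4 alone with its 1 library of 0 h, whose spread cannot be measured.

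Transected and sham cords were then compared at 3 to 15 h, between the windows of the rule, with the pair of the same series and hour as a block. Some of the 20 genes were called in each direction. At 3 to 6 h (5 pairs) genes 9, 10, 16 and 20 were higher in transected cords and genes 1, 3, 4, 6, 12 and 19 were lower, so that 4 and 6 of 20 were called where 2.99% and 1.37% of all genes were. At 7 to 10 h (5 pairs) genes 2 and 10 were higher (3.92% of all genes) and genes 3, 4, 6 and 12 lower (2.1%). At 11 to 15 h (7 pairs) genes 2 and 10 were again higher (11.5%) and genes 3, 4, 6, 12 and 15 lower (11.4%). At 0.5 to 2 h the mean pair differences of these genes had the same sign, except for genes 1 (0.04) and 15 (0.02). They were 0.24, 0.29, 0.20, 0.23 and 0.27 for genes 2, 9, 10, 16 and 20. For genes 3, 4, 6, 12 and 19 they were -0.29, -0.16, -0.16, -0.07 and -0.22. Whether the later windows differed from that of 0.5 to 2 h was not tested.

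Gene 10 had the largest difference of the 20 in these windows. In transected cords it was at 4.43, 3.17, 4.28 and 5.03 CPM at 3, 4, 5 and 6 h in S3 and at 4.05 CPM at 6 h in S4. In sham cords it was at 2.66, 0.473, 0.658 and 0.265 CPM in S3 and at 0.575 CPM in S4, below every transected library. The difference was 2.49 ± 0.39 (SE, edgeR adjusted p = 1.8e-05) at 3 to 6 h, 2.90 ± 0.46 (adjusted p = 2.5e-05) at 7 to 10 h and 2.69 ± 0.39 (adjusted p = 1.5e-06) at 11 to 15 h, and each of the 17 pairs was higher in the transected library. The sham levels of 0.108 to 0.586 CPM between 7 and 15 h rest on 2 to 21 expected counts a library. Uninjured cords held 0.383 to 11.4 CPM of this gene over those hours, and both libraries of 12 h were the only uninjured ones within the sham range.

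Genes 9 and 16 moved together. At 3, 4 and 5 h in S3 and 6 h in S4, gene 9 held 217, 169, 132 and 111 CPM in transected cords, against 80.0, 82.8, 66.5 and 60.0 CPM in sham cords, and the remaining pair, of 6 h in S3, had the smallest difference with 0.56. At 3, 4, 5 and 6 h in S3 and 6 h in S4, gene 16 held 186, 165, 123, 103 and 107 CPM in transected cords, against 81.6, 80.6, 63.0, 71.4 and 57.5 CPM in sham cords. Neither gene's groups overlapped, and the differences were 1.02 ± 0.12 and 0.96 ± 0.12 (SE, edgeR adjusted p = 5e-08 and 1.8e-07). By 7 to 10 h neither passed the test, and the mean pair differences were 0.18 ± 0.11 and 0.24 ± 0.36 (SD). Gene 20 was higher at 3 to 6 h by 0.57 ± 0.15 (SE, edgeR adjusted p = 0.012) in 5 of 5 pairs, and its mean pair difference at 7 to 10 h was -0.07 ± 0.09 (SD). This call was lost without the 3, 4 or 5 h pair of S3 (edgeR adjusted p = 0.068, 0.078 and 0.086) and without the block (0.36).

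Genes 3 (Xelaev18038750m.g) and 6 (Xelaev18042053m.g), whose identifiers are given after their values were seen, were lower in transected cords in all 3 windows. Without the pair as a block their calls at 7 to 10 h were lost (edgeR adjusted p = 0.077 and 0.063). Gene 3 held 9.49, 7.35, 9.14, 7.07 and 12.1 CPM in transected cords at 3 to 6 h in S3 and 6 h in S4, against 18.7, 18.3, 15.3, 13.8 and 15.3 CPM in sham cords. Gene 6 held 6.77, 5.92, 5.74, 6.71 and 6.72 CPM in transected cords, against 13.7, 13.0, 12.7, 9.63 and 12.5 CPM in sham cords, and for both genes the groups did not overlap. The differences were -0.83 ± 0.10 for gene 3 and -0.91 ± 0.12 for gene 6 (SE, edgeR adjusted p = 9.1e-08 and 3.9e-07). At 11 to 15 h gene 3 was at 8.45 to 11.0 CPM (median 8.91) in transected cords and at 8.97 to 16.4 CPM (median 13.8) in sham cords, and its lowest sham library was that of 12 h in S5. The differences there were -0.58 ± 0.08 and -0.64 ± 0.10 (edgeR adjusted p = 1.2e-06 and 2.6e-06).

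In S3 the transected level of both genes at 6 h was close to that of 0 h, and the sham level was above it. Gene 3 was at 7.07 CPM in the transected library of 6 h, at 13.8 CPM in the sham library of 6 h and at 7.67 CPM at 0 h. Gene 6 was at 6.71 CPM in the transected library, at 9.63 CPM in the sham library and at 6.94 CPM at 0 h. The rule used the 0 h library of S3, which favoured sham levels above it. In S4, whose 0 h library the rule did not use, the transected library of 6 h held 12.1 CPM of gene 3. The sham library of 6 h held 15.3 CPM and that of 0 h 11.2 CPM. For gene 6 these levels were 6.72, 12.5 and 7.43 CPM. Each of these levels is that of 1 library. Uninjured cords at 3 to 6 h held 11.5 to 17.7 CPM of gene 3 and 10.1 to 18.1 CPM of gene 6, ranges that overlap those of sham cords and, for gene 6, lie above all 5 transected libraries.

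Gene 12 was at 39.6, 35.8, 40.8, 37.6 and 47.0 CPM in transected cords at 3 to 6 h, against 64.7, 61.0, 54.1, 46.0 and 55.3 CPM in sham cords, and differed by -0.45 ± 0.07 (SE, edgeR adjusted p = 4.6e-05). Its difference was -0.28 ± 0.07 at 7 to 10 h and -0.33 ± 0.06 at 11 to 15 h (adjusted p = 0.012 and 9.4e-05), and all 17 pairs were lower in transected cords. The call at 7 to 10 h was lost without the 10 h pair of S5 (edgeR adjusted p = 0.086) and without the block (0.22). Gene 4 differed by -0.42 ± 0.11, -0.35 ± 0.11 and -0.38 ± 0.09 in the 3 windows, again in all 17 pairs (edgeR adjusted p = 0.015, 0.04 and 0.0017). Its call at 3 to 6 h was lost without the 3 or 4 h pair of S3 (edgeR adjusted p = 0.11 and 0.052). That at 7 to 10 h was lost without any pair but that of 8 h in S4 (edgeR adjusted p from 0.079 to 0.14). Without the block gene 4 was called in none of the 3 windows (edgeR adjusted p = 0.82, 0.86 and 0.23). Genes 1 and 19 were called lower at 3 to 6 h only, at -0.61 ± 0.19 and -0.65 ± 0.19 (edgeR adjusted p = 0.048 and 0.043), and whether this window differed from the next was not tested. The call of gene 1 was lost without the 3, 4 or 5 h pair of S3 (edgeR adjusted p = 0.29, 0.11 and 0.18) and by DESeq2 (adjusted p = 0.057). That of gene 19 was lost without any pair but that of 5 h in S3 (edgeR adjusted p from 0.076 to 0.24), and both were lost without the block (0.86 and 0.38). Gene 2 was higher by 0.48 ± 0.14 at 7 to 10 h and 0.45 ± 0.12 at 11 to 15 h (edgeR adjusted p = 0.034 and 0.0047), in all 12 pairs. Its call at 7 to 10 h was lost without any pair but that of 10 h in S4 (edgeR adjusted p from 0.06 to 0.22). Both of its calls were lost without the block (edgeR adjusted p = 0.37 and 0.077). Gene 15 was lower by -0.29 ± 0.08 at 11 to 15 h (edgeR adjusted p = 0.006). That call was lost without the 12 h pair of S5 (edgeR adjusted p = 0.054) and without the block (0.38).

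**Figure D3:**
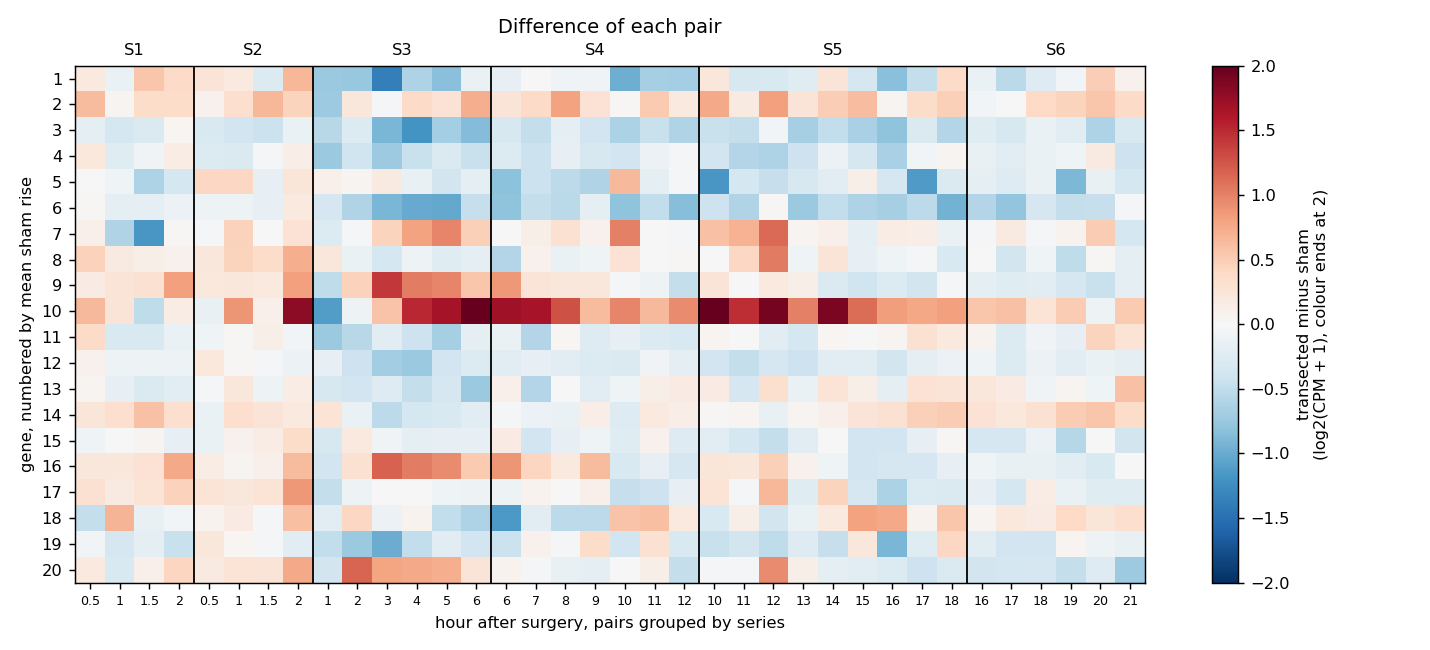
Difference of each of the 36 pairs, transected minus sham (colour, log2(CPM + 1), ends at 2 and -2), by hour within the series S1 to S6 (columns), for the 20 genes (rows). Gene 10 was higher in transected cords in all 17 pairs of 3 to 15 h, genes 9 and 16 in the 5 pairs of 3 to 6 h, and genes 3, 4 and 12 were lower in all 17.

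The number of genes called at 3 to 6 h was 6 without the 3 h pair or the 4 h pair of S3, and 3 at 7 to 10 h without the 10 h pair of S5. Without the pair as a block, 6, 1 and 4 genes were called in the 3 windows. Without the 12 h pair of S5 the count at 11 to 15 h was 6, with 2 higher and 4 lower.

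Against 0 h of S4 to S6, transected cords had higher levels of genes 2 and 10 and a lower level of gene 6 in the windows of 6 to 10 h and 11 to 15 h. The shares of all genes called were 4.85% higher and 2.82% lower at 6 to 10 h, and 7.3% and 5.18% at 11 to 15 h. Gene 10 differed from 0 h by 3.11 ± 0.49 and 2.35 ± 0.47 (SE, edgeR adjusted p = 1.8e-05 and 4.1e-04). Its 3 libraries of 0 h held only 0.165 to 0.775 CPM. Gene 2 differed by 0.65 ± 0.21 and 0.81 ± 0.20 (edgeR adjusted p = 0.05, just under the threshold, and 0.0041). Gene 6 differed by -0.47 ± 0.15 and -0.41 ± 0.14 (edgeR adjusted p = 0.038 and 0.036), and without S5 its differences were 0.04 and 0.00. Without S5 the differences of gene 1 were 2.65 and 2.06, and that of gene 4 at 11 to 15 h was 0.68, against -0.29 with S5 and no call. All values without S5 rest on S4 and its 1 library of 0 h. At 11 to 15 h 5 members were called without the 0 h library of S4 and 1 without that of S5. The share of all genes called in those fits is not given here. The comparisons of transected cords with 0 h share their 0 h libraries with those of sham cords.

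**Figure D4:**
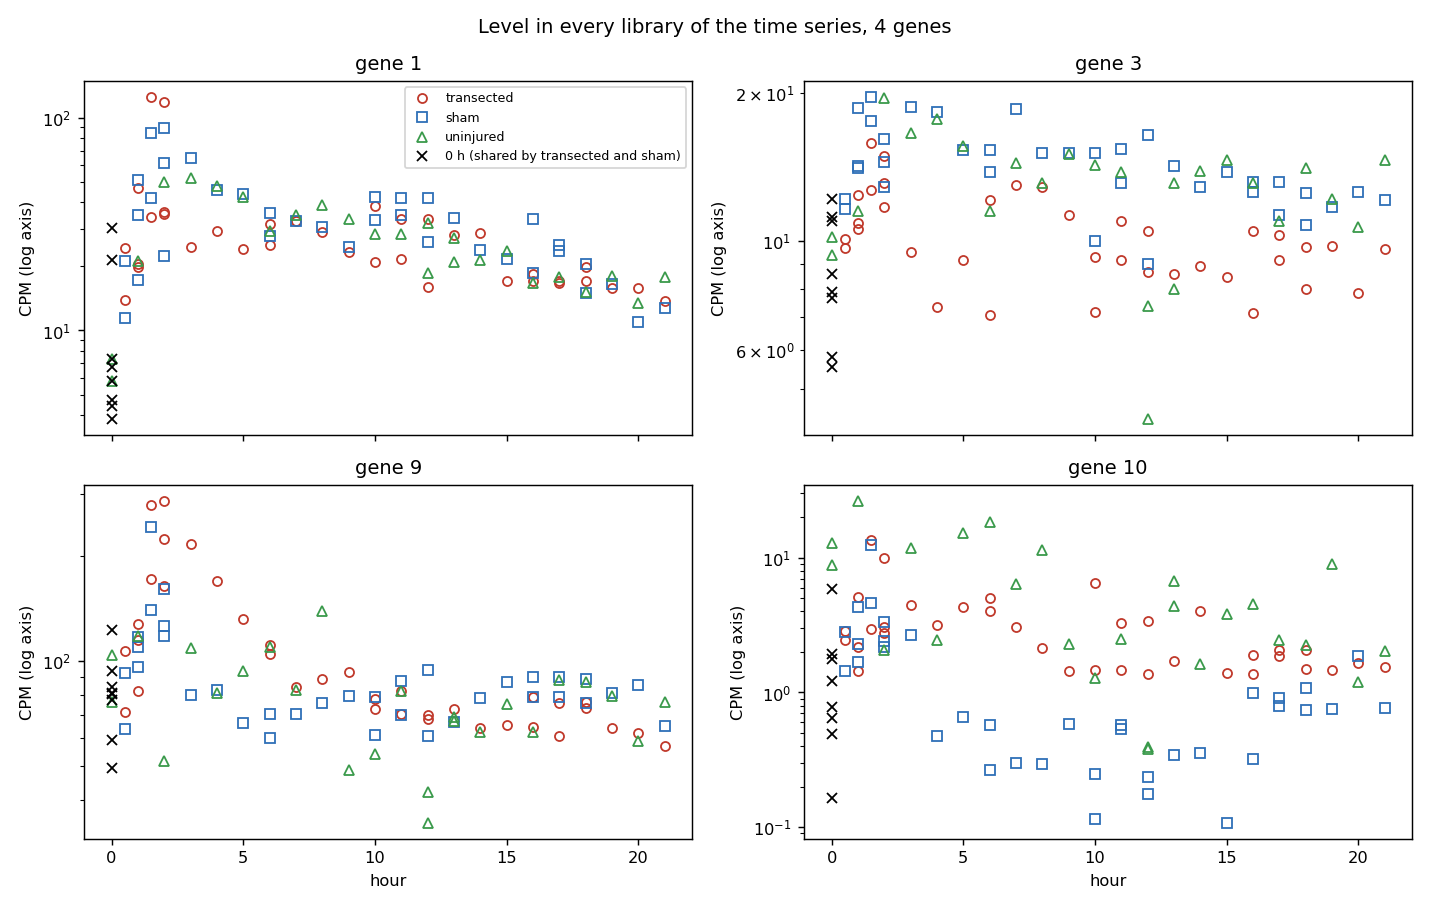
Levels of genes 1, 3, 9 and 10 (y axis, CPM, log axis) in every library of the time series by hour (x axis), with circles for transected, squares for sham and triangles for uninjured cords and crosses for the 0 h libraries that transected and sham cords share. Gene 1 was at 11.0 CPM or more in every library from 1 h on, against at most 7.37 CPM at 0 h in S1 to S4. At 0 h in S5 and S6 it was at 30.4 and 21.5 CPM, above many later libraries. Gene 3 was lower in transected than in sham cords at 3 to 6 h, gene 9 was higher there, and gene 10 had its lowest levels in sham cords.

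In the Torin1 experiment no member passed the test. The days served as replicates, so a difference that changed from day to day added to the spread of the test. Torin1 was present on the initial day only. edgeR with the day as a block called 0.0% of all genes, with 815 of 31992 genes at an unadjusted p under 0.05, and DESeq2 called 41 genes, with 0 of the 20 among them. The median difference of the 20 genes was 0.18 at 1 day, -0.02 at 2 days and -0.09 at 4 days. Gene 7 was the exception in size, with 21.7, 13.5 and 4.45 CPM in Torin1 cords at 1, 2 and 4 days, against 1.54, 2.89 and 2.55 CPM in DMSO cords. Its Torin1 level was above that of DMSO on each day, with log2 differences of 3.16, 1.90 and 0.62 and a fitted difference of 2.25 ± 0.52 (SE, unadjusted p = 0.0039, edgeR adjusted p = 1.0). Outside Torin1 its highest level was 6.36 CPM, in a transected library of the time series, whose tables were made separately. It was the only one of the 20 to differ 2-fold on days 1 and 2, when 0.758% and 0.226% of all genes were 2-fold higher. No member was 2-fold higher on day 4 (0.0742%) or 2-fold lower on days 1, 2 and 4 (1.33%, 0.331% and 0.183%). Without day 1 gene 7 was called, with a difference of 1.54 (edgeR adjusted p = 0.0011), and so were 539 of all genes. Gene 1 was at 5.57, 2.00 and 4.48 CPM in Torin1 cords and at 3.97, 2.21 and 4.89 CPM in DMSO cords, which is no higher than its levels of 0 h in S1 to S4 in the separately made tables of the time series.

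The correlation of the genes' changes from 0 h was taken over all 95 libraries of the time series other than those of 0 h, which share series and 0 h libraries and include those the rule used. It had a median of 0.42 over the 190 pairs of genes and ran from -0.242 to 0.965. Genes 9 and 16 were most alike (r = 0.965), followed by genes 3 and 6 (0.887), genes 1 and 4 (0.832) and genes 4 and 15 (0.826). Over the 25 uninjured libraries alone, here with those of 0 h included, r for these pairs was 0.976, 0.745, 0.269 and 0.612. Genes 1, 4 and 15 had higher levels at 0 h in S5 and S6 than in the other series. Changes from 0 h carry that difference, and its share in r was not tested. Genes 11 and 13 carry consecutive identifier numbers, and gene 11 was at a mean of 3.87 CPM and gene 13 at 17.3 CPM over the time series. The mean levels of the 20 genes ran from 2.27 CPM for gene 7 to 122 CPM for gene 16 (median 17.5 CPM, against 8.51 CPM over all tested genes). Their effective transcript lengths, derived from the deposited FPKM, ran from 372 to 4980 bases with a median of 2330, against 2220 over all tested genes.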

How the data were processed

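The authors quantified polyA+ reads with RSEM after Bowtie (time series) or Bowtie2 (Torin1) on the v9.1 gene models, and CASAVA 1.7 is named in the submitters' processing notes. The authors deposited per library an expected count, a TPM and an FPKM for each of 45099 gene models. Expected counts are not normalized. Reads shared by similar homeologs are split by RSEM, and such counts are uncertain. Expected counts were rounded, and a gene was tested if it reached 5 counts in 4 time points of any condition (32328). Tests were edgeR 4.0.16 quasi-likelihood fits in R 4.3.3 with TMM, called at an adjusted p under 0.05, with the pair, the series or the day as a block; DESeq2 1.42.0 was an alternative. TPM was used as an alternative scale for the rule, and FPKM only for effective lengths. The pair is given by series and hour, and deviations within the 36 pairs correlated by 0.28 on average (-0.188 to 0.594). The fitting code was checked on simulated counts. Levels were computed with Python 3.11.15 and pandas 2.3.3. The members and lists were chosen with earlier results of these data known. The rule for genes printed by identifier took the 2 largest mean sham rises, and for falls it named none. Planned gene lists and cell type markers need symbols and were not used here.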

Additional observations from a re-analysis of the deposited data

Results flagged for a closer look

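In 100 groups of 4 to 7 values, the highest or lowest value stood apart from the others in 8 by Dixon's test, where chance gives about 1 in 20. Of the pair differences (transected minus sham, log2 scale) of 7 to 10 h, the 10 h pair of S4 stood apart for gene 1 (-0.98, others at a median of -0.03), gene 9 (-0.02, others 0.23) and gene 18 (0.57, others -0.41). Of those of 11 to 15 h, the 12 h pair of S5 did for gene 3 (-0.05, others -0.55), gene 6 (0.03, others -0.61) and gene 20 (0.95, others -0.11), the pair whose transected and sham libraries lie on different sides of the step in S5. In uninjured S7 cords at 3 to 6 h, the change from 0 h of gene 13 was 0.80 at 6 h (others 0.85), and that of gene 20 was -0.12 at 4 h (others 0.53).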

How the results depend on the processing

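The rule found 33 genes with TPM (16 of the 20 among them), 35 with a pseudocount of 0.5 (19) and 17 with TMM library sizes (16). Between transected and sham cords, fits without the pair as a block called 6, 1 and 4 members at 3 to 6, 7 to 10 and 11 to 15 h, and leaving out each pair gave 6 to 11 and 3 to 6 in the earlier windows. Leaving out S5 left only S4 with its 1 library of 0 h in the windows of 6 to 10 and 11 to 15 h, so calls without S5 are not counted. For transected cords against 0 h, leaving out each 0 h library gave 1 to 5 calls at 11 to 15 h. Without S5 the difference of gene 6 in transected cords was 0.04 and 0.00 in the windows of 6 to 10 and 11 to 15 h, and that of gene 4 reversed at 11 to 15 h, at 0.68. The comparisons of operated libraries of 16 to 21 h with 0 h were left out because the rule used these libraries. For uninjured cords, leaving out a library gave in the order of the windows 0 to 2, 1 to 1, 0 to 1, 0 to 1 and 0 to 0 calls. S7 alone gave 0, 0 and 0 in the windows up to 10 h, and so did 7 to 10 h as reference, with 0 and 0. DESeq2 gave 2 calls each in the windows of 7 to 10 and 16 to 21 h, and leaving out the 12 h libraries gave 5, 2 and 2 in the windows of 3 to 6, 7 to 10 and 16 to 21 h. In the Torin1 experiment leaving out a day gave 0 to 1. The calls counted in this section are those of members only, without the shares of all genes called in the same fits. Their shifts therefore cannot be read as particular to the members, and the cause was not tested. Genes 7, 10, 11, 18 and 19 have the lowest counts (1 to 17 in their lowest library), which limits what their differences can show.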
